A study of Mus musculus with 48 samples.

Results

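Heat shock proteins and the molecular chaperones that work with them were described across 2 teratogens, 2 tissues and 2 times in mouse forelimb buds. A list of 10 genes was taken, and every probe set that named 1 of these genes alone was used. The list covers a heat shock factor (Hsf2), the cytosolic chaperones Hspa8, Hspa4, Hsph1 and Dnajb1, the mitochondrial chaperones Hspd1, Hspe1 and Hspa9, and the small heat shock protein Hspb1. These 9 genes had 14 of the 12488 probe sets on the Affymetrix MG-U74Av2 array, and they are 9 of 8251 genes measured. Hsf1, the 10th gene, was named alone by no probe set and was not analysed here.

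Dams received cadmium sulfate at 4 mg/kg in phosphate buffered saline (PBS) or PBS alone, or acetazolamide at 400 mg/kg in vegetable oil or oil alone, by intraperitoneal injection on gestation day 9.5. Right forelimb buds were collected 3 h and 12 h later and trypsinised, and their ectoderm and mesoderm were taken apart. Each of the 16 groups (2 agents and 2 vehicles, 2 tissues, 2 times) had 3 arrays, 48 in all. The labels give no mouse strain or embryo number, say that tissue of several litters was pooled to obtain RNA, and do not say that the arrays of a group came from separate pools, so p-values measure the spread between these samples only.

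Heat shock proteins bind unfolded or newly made proteins and help them fold, travel or be degraded. Their genes are classic targets of heat shock factors, which bind heat shock elements (alternating GAA and TTC letters) after heat, oxidants or metals, and cadmium is a textbook inducer of several of them. Many are also made without stress in dividing embryonic cells, where they serve ordinary protein folding in the cytosol and in mitochondria. In bulk tissue such as this, fewer cells of a type and less RNA per cell cannot be told apart.

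Promoter sequences are shown for 4 genes that the results below compare: Dnajb1, which had lower RNA at 3 h, Hspe1, whose start lies beside that of Hspd1, and Hsph1 and Hspb1, which did not pass the test. The windows run from 250 bases before to 50 bases after a start of the gene in RefSeq's annotation of mouse build GRCm38.p6. They read 5′ to 3′ on the strand of the gene, and 7 of the 10 genes had such a window. The start used is not always the outermost one of the gene. Capitals mark every match to GAANNTTC or TTCNNGAA, each of which is its own reverse complement and so covers both strands, and overlapping matches run together. The windows are chr8:83607925-83608224 (plus strand) for Dnajb1, chr1:55087898-55088197 (plus strand) for Hspe1, chr5:149636287-149636586 (minus strand) for Hsph1 and chr5:135887669-135887968 (plus strand) for Hspb1.
Dnajb1: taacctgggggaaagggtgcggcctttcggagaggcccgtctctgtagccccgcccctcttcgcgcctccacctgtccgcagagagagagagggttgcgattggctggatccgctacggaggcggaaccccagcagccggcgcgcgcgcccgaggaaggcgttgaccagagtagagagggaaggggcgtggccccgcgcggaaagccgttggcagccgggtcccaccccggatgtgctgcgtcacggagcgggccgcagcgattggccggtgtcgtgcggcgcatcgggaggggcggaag
Hspe1: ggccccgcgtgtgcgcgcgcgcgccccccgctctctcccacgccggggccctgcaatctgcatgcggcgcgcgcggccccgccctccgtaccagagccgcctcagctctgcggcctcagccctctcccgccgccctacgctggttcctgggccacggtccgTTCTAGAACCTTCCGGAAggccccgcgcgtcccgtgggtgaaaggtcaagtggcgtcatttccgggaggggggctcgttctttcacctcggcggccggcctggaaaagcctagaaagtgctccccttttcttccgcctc
Hsph1: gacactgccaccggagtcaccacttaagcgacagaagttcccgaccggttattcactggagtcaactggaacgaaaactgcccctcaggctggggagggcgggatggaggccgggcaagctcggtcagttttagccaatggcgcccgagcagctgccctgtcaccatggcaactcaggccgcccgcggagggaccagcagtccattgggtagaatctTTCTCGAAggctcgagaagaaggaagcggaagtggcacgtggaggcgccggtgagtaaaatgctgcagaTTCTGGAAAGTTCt
Hspb1: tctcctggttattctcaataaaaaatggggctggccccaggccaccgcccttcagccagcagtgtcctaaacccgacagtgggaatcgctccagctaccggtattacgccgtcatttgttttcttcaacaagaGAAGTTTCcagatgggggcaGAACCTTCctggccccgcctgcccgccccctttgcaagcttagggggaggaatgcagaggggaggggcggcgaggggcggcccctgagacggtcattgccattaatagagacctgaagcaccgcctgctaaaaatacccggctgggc
Hspe1 had 3 overlapping matches that form 1 run of 4 alternating units, starting at base -89 relative to the start of the gene. The same bases, read on the other strand, lie in a window of Hspd1 (chr1:55087883-55088182), because these genes start head to head. The start used for that window lies inside Hspd1. The other Hspd1 window (chr1:55088194-55088493) holds base 55088243, where the annotated span of the gene begins, and had no match. Hsph1 had 3 matches in 2 stretches at -33 and 36 from the start used for this window, the longer with 3 units. That start lies inside the gene, whose annotated span begins at base 149636498 on its strand. In the other Hsph1 window (chr5:149636266-149636565) the stretches lie at -54 and 15. Hspb1 had 2 separate matches at -117 and -97. Dnajb1 had none in either of its windows, and Hspa4 had none. Hsf2 had none in its window (chr10:57486135-57486434), which lies inside the gene, whose annotated span begins at base 57483766. Of 32851 promoter windows of this length, 15.1% held a match to either 8-letter motif, and 0.603% held 3 alternating units in a row (GAANNTTC followed by NNGAA, or TTCNNGAA followed by NNTTC). A match is a description of these letters only, and its absence says nothing about binding elsewhere.

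The values are the authors' deposited ratios, converted to log2. Each is relative to its own vehicle, so no expression level is known and tissue identity cannot be checked against marker levels. In every comparison, vehicle array 3 is 0 by construction, and vehicle arrays 1 and 2 lie at nearly equal distances on either side of 0. Each effect is the log2 difference, treated minus vehicle, from a limma model over all 8251 genes, with its SE and n = 3 arrays in each group. A gene rose or fell where the adjusted p (Benjamini-Hochberg over all genes of that comparison) was under 0.05. Medians over all genes lay between -0.12 and 0.10 in the 48 arrays, and the residual SD was smallest 12 h after cadmium in mesoderm (0.115) and largest 12 h after cadmium in ectoderm (0.223). The 2 metallothionein genes, which encode metal-binding proteins that cadmium is known to induce, lay 0.07 to 0.58 above vehicle 3 h after cadmium and fell in 12 h mesoderm, where the effects were -0.76 and -2.86. The 12 h values run against that known induction, so they are no check of the cadmium label, and every direction in that comparison rests on the labels alone.

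None of the 9 heat shock genes rose after either agent, in either tissue or at either time. The 9 genes in 8 comparisons gave 72 effects, of which 1 passed the test, a fall of Hspd1 in 12 h cadmium mesoderm. That is 1.39% of the effects, where 0.295% of all gene effects in these comparisons passed. At an unadjusted p under 0.05 there were 12 effects (16.7%, against 5.95% over all genes), and in 13 the treated and vehicle arrays did not overlap (18.1%, against 12.6%). Above 0 were 29 of the 72 effects, where 49.3% of all gene effects were. The 9 genes were chosen with earlier results of these data known, so these shares are a description only. The plot of effects shows their distribution over genes and comparisons.

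Hsf2 (1 probe set), a heat shock factor with roles in development, passed the test in no comparison. Its effects ran from -0.14 in 12 h acetazolamide mesoderm to 0.23 in 3 h acetazolamide mesoderm, its treated and vehicle arrays overlapped in all 8 comparisons, and its smallest adjusted p was 0.802.

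Dnajb1 (1 probe set) encodes an HSP40 protein whose J domain stimulates the ATPase of HSP70, and it is a well known heat-inducible gene. Its arrays lay below vehicle 3 h after both agents and in both tissues. In mesoderm 3 h after cadmium the treated arrays read -0.33, -0.62 and -0.70, against -0.29, 0.24 and 0 in PBS mesoderm. All treated arrays of that comparison lay below all vehicle arrays, and the effect was -0.53 ± 0.14 (adjusted p = 0.889). In ectoderm 3 h after cadmium the treated arrays read -0.43, -0.28 and -0.62, against 0.07, -0.07 and 0 in PBS ectoderm, an effect of -0.44 ± 0.17 (adjusted p = 0.999). Acetazolamide gave a like picture: the effect was -0.58 ± 0.19 in mesoderm (adjusted p = 0.423), where the treated arrays read -0.55, -0.23 and -0.97 and the oil arrays -0.13, 0.12 and 0. In ectoderm 3 h after acetazolamide the treated arrays read -0.39, -0.29 and -0.40, against -0.14, 0.13 and 0 in oil ectoderm (effect -0.35 ± 0.18, adjusted p = 0.732). No single comparison passed the test on all arrays. In mesoderm the cadmium comparison passed without PBS array 1 (-0.71, adjusted p = 0.00123) and the acetazolamide comparison without oil array 1 (-0.71, adjusted p = 0.0239). The acetazolamide effect in mesoderm leaned on array 3 and was -0.38 (adjusted p = 0.557) without array 3 of either group. The cadmium effect in mesoderm was -0.40 (adjusted p = 0.399) without PBS array 2. In all, all 12 treated arrays at 3 h were below 0, between -0.97 and -0.23.

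Taken as the mean of the 4 comparisons at 3 h, an effect that was added after the values of single genes had been seen, Dnajb1 fell by 0.48 on the log2 scale (SE 0.086, 95% interval -0.65 to -0.30, adjusted p = 0.00709). This is 1.39-fold lower in treated than in vehicle limb buds. It was 1 of 9 heat shock genes past the threshold in this mean effect, where 0.570% of all genes passed and 0.158% did so downward. The call held when any single array was left out (adjusted p 0.00156 to 0.0197) and was lost when only arrays 1 and 2 of each group were used (-0.38, adjusted p = 0.0986). The SE of this and the other mean effects treats ectoderm and mesoderm arrays as independent. These tissues were taken apart from limb buds and may share them. With same-numbered arrays of the tissues averaged, the adjusted p was 0.0428 (limma). At 12 h the mean effect of Dnajb1 was -0.10 ± 0.11 (95% interval -0.32 to 0.11, adjusted p near 1). The difference between the times, 12 h minus 3 h, was 0.37 ± 0.14 and did not pass the test (adjusted p = 0.441), so the 3 h fall is not shown to be confined to 3 h. Cadmium minus acetazolamide and mesoderm minus ectoderm were tested for Dnajb1 at each time, and no such difference passed.

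The arrays carry control probe sets at the 3′ and 5′ ends of Gapdh and Actb, and their log2 3′/5′ ratio reads RNA integrity. Treated minus vehicle, this ratio was 0.45 for Gapdh and 0.26 for Actb in 3 h acetazolamide ectoderm and 0.59 and 0.52 in 3 h acetazolamide mesoderm. After cadmium at 3 h it was 0.096 and -0.031 for Gapdh in ectoderm and mesoderm, and -0.069 and -0.081 for Actb. The part of RNA integrity in the values of Dnajb1 was not tested after either agent.

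Hspa8 (1 probe set), the constitutive cytosolic HSP70 that also strips clathrin from vesicles, had 11 of its 12 treated arrays at 3 h below 0. In mesoderm 3 h after acetazolamide the treated arrays read -0.32, -0.30 and -0.29, against 0.01, -0.01 and 0 in oil mesoderm (effect -0.30 ± 0.13, adjusted p = 0.596). In mesoderm 3 h after cadmium they read -0.07, -0.20 and -0.30, and the PBS arrays were all within 0.01 of 0 (effect -0.19). The treated arrays lay below the vehicle arrays in both. In ectoderm 3 h after acetazolamide, arrays 1 and 2 read -0.56 and -0.50 while array 3 read 0.24, against -0.11, 0.10 and 0 in oil ectoderm. The effect there was -0.27 ± 0.13 (adjusted p = 0.700), and it was -0.53 (adjusted p = 0.00988) without array 3 of either group. Leaving out array 1 or 2 of either group gave effects nearer to 0 (-0.14 without oil array 2, -0.18 without acetazolamide array 1). The mean effect at 3 h was -0.23 ± 0.059 (adjusted p = 0.0632). It was -0.29 (adjusted p = 0.00299) without acetazolamide array 3 or oil array 3 in ectoderm. It also passed without PBS array 1 in ectoderm (adjusted p = 0.0468) and without PBS array 2 in mesoderm (adjusted p = 0.0471). At 12 h the order was different: in cadmium mesoderm the treated arrays read 0.23, 0.09 and 0.15, all above the PBS arrays at 0.06, -0.07 and 0 (effect 0.16, adjusted p = 0.480). The mean effect at 12 h was 0.07, and the difference between times was 0.30 ± 0.093 (adjusted p = 0.316).

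**Figure D1:**
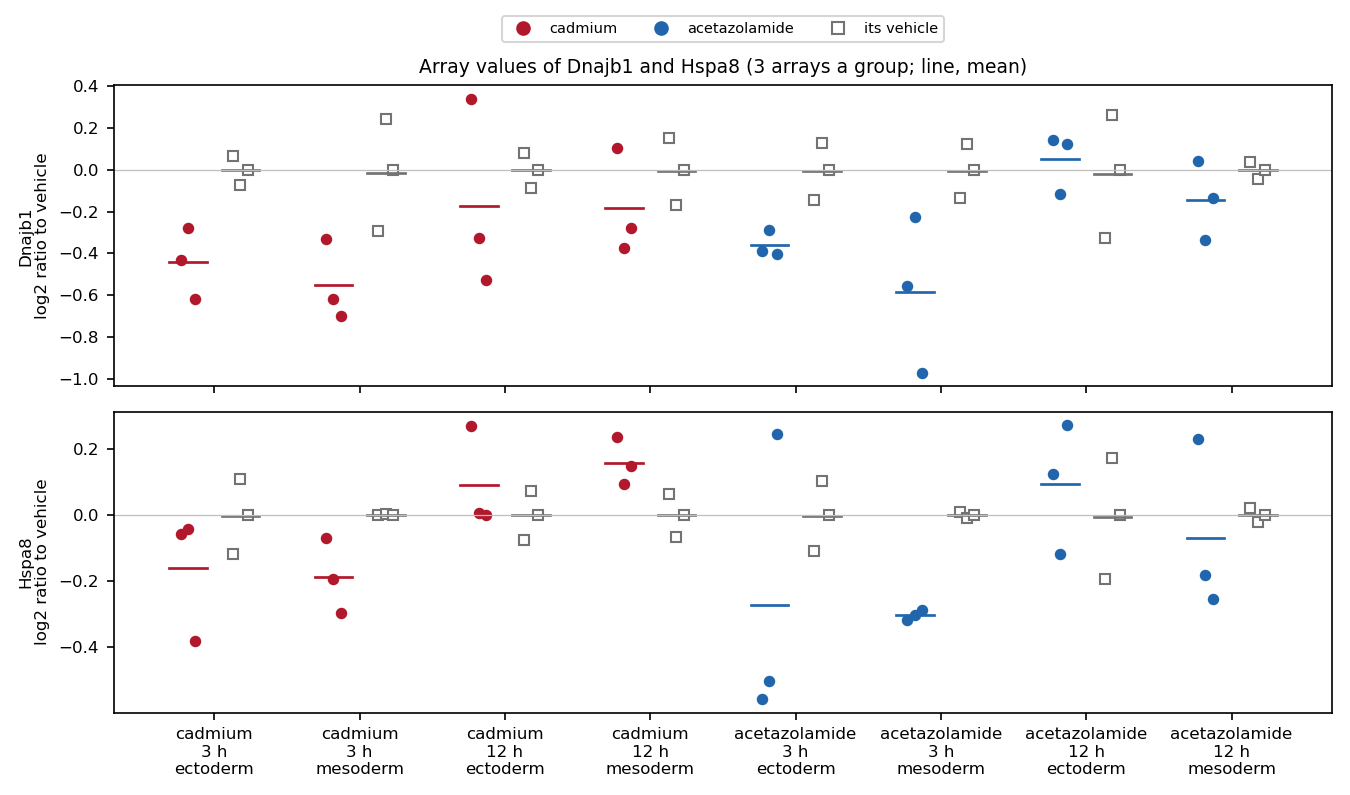
Log2 ratio of each treated and each vehicle array for Dnajb1 and Hspa8 in the 8 agent comparisons, treated arrays left of vehicle arrays. For Dnajb1 the treated arrays lie below the vehicle arrays in all 4 comparisons at 3 h; for Hspa8 they do so in both mesoderm comparisons at 3 h, and 1 array of 3 h acetazolamide ectoderm stands at 0.24 while its other arrays read -0.56 and -0.50.

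Non-overlap was counted in each comparison at 3 h. Below the vehicle arrays lay Dnajb1 alone in cadmium ectoderm and in acetazolamide ectoderm, and Dnajb1 and Hspa8 in cadmium mesoderm. In acetazolamide mesoderm 3 genes did not overlap, with Dnajb1 and Hspa8 below and Hspe1 above. Over all genes the groups did not overlap for 9.39% and 9.62% in cadmium ectoderm and mesoderm at 3 h, and for 13.8% and 15.9% in acetazolamide ectoderm and mesoderm.

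Hsph1 (1 probe set) and Hspa4 encode HSP110-family proteins, which release ADP from HSP70 and so let it let go of its client. Hsph1 was spread widely in ectoderm 3 h after cadmium, with treated arrays at -0.01, -0.52 and -1.22, against 0.11, -0.12 and 0 in PBS ectoderm. The groups overlapped, and the effect was -0.58 ± 0.25 (adjusted p = 0.999). Without cadmium array 3 or PBS array 3 it was -0.26 (adjusted p = 0.839). Its effect was below 0 in 7 of 8 comparisons, from -0.58 to 0.05, with a mean effect at 3 h of -0.28 ± 0.13 (adjusted p = 0.380). Hspa4 was measured by 5 probe sets. In mesoderm 12 h after cadmium its treated arrays read -0.20, -0.35 and -0.44, all below the PBS arrays at 0.08, -0.09 and 0 (effect -0.32 ± 0.12, adjusted p = 0.147). Its probe sets disagreed in size there, between -0.64 and -0.01. In the other 7 comparisons the effect of Hspa4 ran from -0.22 to 0.14 and its groups overlapped.

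The mitochondrial chaperones are Hspd1 (HSP60), which forms the folding chamber of the matrix, Hspe1 (HSP10, 1 probe set), which caps it, and Hspa9 (mortalin, 1 probe set), the HSP70 of the protein import motor. At 3 h their effects lay between -0.12 and 0.19 and none passed the test. At 12 h their effects were below 0 in cadmium ectoderm, cadmium mesoderm and acetazolamide mesoderm and above 0 in acetazolamide ectoderm, and of these 12 effects the 1 that passed was Hspd1 in cadmium mesoderm. Its treated arrays there read -0.24, -0.22 and -0.27, against 0.08, -0.09 and 0 in PBS mesoderm. The 3 treated arrays agree closely and lie below all PBS arrays, and Hspd1 fell by 0.24 (SE 0.066, 95% interval -0.38 to -0.11, adjusted p = 0.0457). Its 2 probe sets gave effects of -0.33 and -0.16. In this comparison 2.28% of all genes passed the test and 19.3% did not overlap, and of the 9 heat shock genes 1 passed and 3 did not overlap (Hspd1, Hspa4 and Hspa8). The call of Hspd1 is close to the threshold: it was lost when array weights were dropped (adjusted p = 0.587), and it was lost on leaving out each of 37 of the 48 arrays in turn (adjusted p 0.0271 to 0.237 over all 48). In the same comparison 2 of 11 endothelial marker genes and 1 of 10 red cell marker genes rose, where 1.05% of all genes did. The endothelial genes ranged from 0.00 to 0.63 with 11 of 11 above 0, where 54.4% of all genes were. The 3′/5′ ratio there was -0.25 for Gapdh and -0.072 for Actb. The part of these marker values and ratios in the fall of Hspd1 was not tested.

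Hspe1 and Hspa9 did not pass in cadmium mesoderm at 12 h. Hspe1 read 0.03, -0.28 and -0.34 in the treated arrays, which overlapped the PBS arrays (effect -0.20). Hspa9 had an effect of the same size there, -0.20, and the groups overlapped as well. In cadmium ectoderm at 12 h Hspd1, Hspe1 and Hspa9 had effects of -0.19, -0.21 and -0.38, with overlap in each. The 3′/5′ ratio there, treated minus vehicle, was 0.49 for Gapdh and 0.0021 for Actb, and its part in these values was not tested.

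In ectoderm 12 h after acetazolamide the 3 genes lay above vehicle. Hspa9 read 0.38, 0.35 and 0.95 in the treated arrays, against 0.09, -0.09 and 0 in oil ectoderm, with no overlap. Its effect was 0.56 ± 0.23 (adjusted p = 0.621), or 0.37 without array 3 of either group (adjusted p = 0.858). Hspd1 read 0.26, 0.24 and 0.20, against -0.03, 0.02 and 0, also without overlap (effect 0.24 ± 0.11, adjusted p = 0.628). Hspe1 read 0.17, -0.10 and 0.71 and overlapped its vehicle (effect 0.26). Of the 9 heat shock genes 8 were above 0 in this comparison, where 49.6% of all genes were, and 2 did not overlap, where 16.8% of all genes did not. Among the 8, Hsf2, Hsph1, Dnajb1 and Hspa4 had effects of only 0.01, 0.05, 0.07 and 0.09. Each of these changed sign in some recomputed fit. In acetazolamide mesoderm at 12 h the picture was the other way round, with 8 of 9 genes below 0 and 1 above, where 53.3% of all genes were above 0. There Hspd1 read -0.20, -0.33 and -0.04, against -0.01, 0.01 and 0 in oil mesoderm (effect -0.19 ± 0.091, adjusted p near 1). It was the 1 heat shock gene without overlap there, where 5.90% of all genes did not overlap. At 12 h after acetazolamide the 3′/5′ ratio, treated minus vehicle, was 0.41 for Gapdh and 0.23 for Actb in ectoderm and 0.42 and 0.24 in mesoderm, and its part in these values was not tested.

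**Figure D2:**
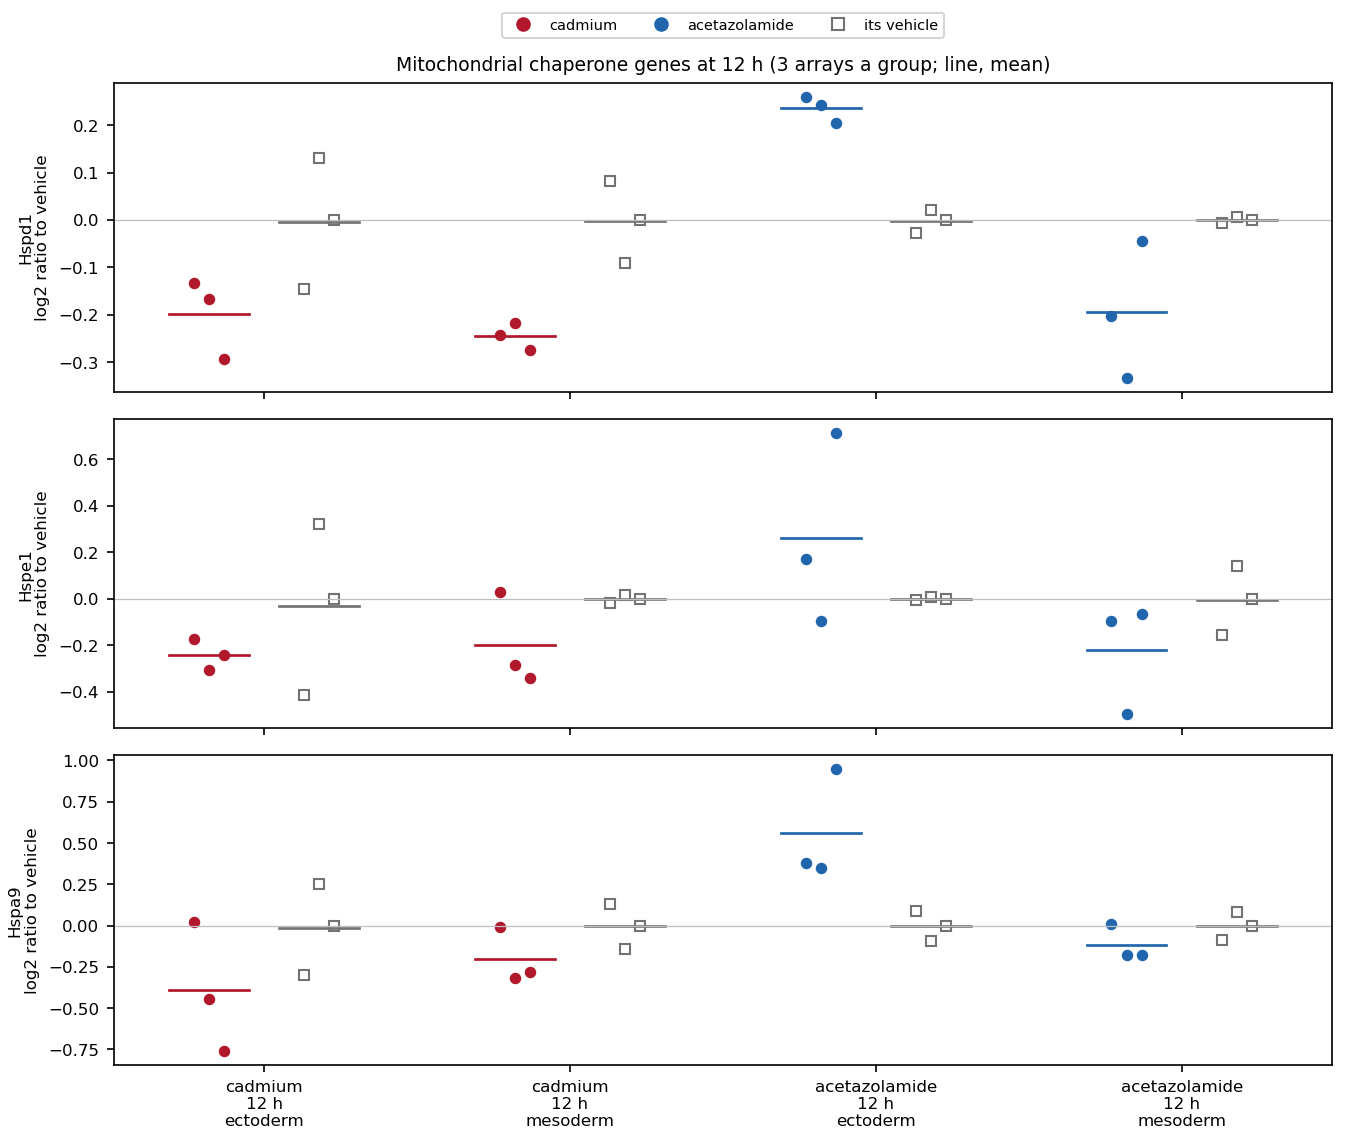
Log2 ratio of each treated and each vehicle array for the mitochondrial chaperones Hspd1, Hspe1 and Hspa9 in the 4 comparisons at 12 h, treated arrays left of vehicle arrays. In acetazolamide ectoderm the treated arrays of Hspd1 (0.26, 0.24 and 0.20) and Hspa9 (0.38, 0.35 and 0.95) lie above their vehicle arrays, and in cadmium mesoderm those of Hspd1 lie below.

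The differences between agents, tissues and times were tested as such. None of 108 differences over the 9 genes passed (limma), where 0.0414% of all such gene differences did. At an unadjusted p under 0.05 there were 10 (9.26%, against 4.08% over all genes). Among these were the difference between agents in 12 h ectoderm, cadmium minus acetazolamide, for Hspa9 (-0.94, adjusted p = 0.335), Hspd1 (-0.43, adjusted p = 0.341) and Hspb1 (0.65, adjusted p = 0.339). Mesoderm minus ectoderm 12 h after acetazolamide gave -0.67 for Hspa9, -0.43 for Hspd1 and 0.63 for Hspb1 (adjusted p = 0.967 for each). The smallest adjusted p was 0.137, for Hspd1 in cadmium mesoderm, 12 h minus 3 h (-0.33 ± 0.095). The means over both tissues and times of each agent gave no call among 18 effects (limma), where 0.654% of all gene effects passed. At an unadjusted p under 0.05 there were 3 (16.7%, against 12.3% over all genes), and the smallest adjusted p was 0.120 (Dnajb1 after cadmium, -0.33 ± 0.093).

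Array 3 of 1 comparison bears on several of these genes. In ectoderm 3 h after acetazolamide, treated array 3 read 1.01 for Hspe1, where arrays 1 and 2 read -0.68 and -0.38, and 1.08 for Hspa9, where they read -0.35 and -0.17. Without it the effects were -0.52 for Hspe1 (adjusted p = 0.0726) and -0.26 for Hspa9 (adjusted p = 0.422), against -0.01 and 0.19 with it. Leaving out oil array 3 instead gave the same values. Treated array 3 is taken to be a ratio to oil array 3 alone, so a deviation of either array cannot be told from one of the other. The median of treated array 3 over all genes was -0.12, the lowest of the 48 arrays.

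Hspb1 (1 probe set) encodes a small heat shock protein that holds unfolding proteins and acts on actin. In ectoderm 12 h after acetazolamide its treated arrays read -0.73, -0.71 and -0.01, against 0.11, -0.11 and 0 in oil ectoderm. Arrays 1 and 2 were far below vehicle and array 3 was not, so the groups overlapped and the effect of -0.48 ± 0.16 did not pass (adjusted p = 0.545). In the other 7 comparisons the effect of Hspb1 ran from -0.01 to 0.18.

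**Figure D3:**
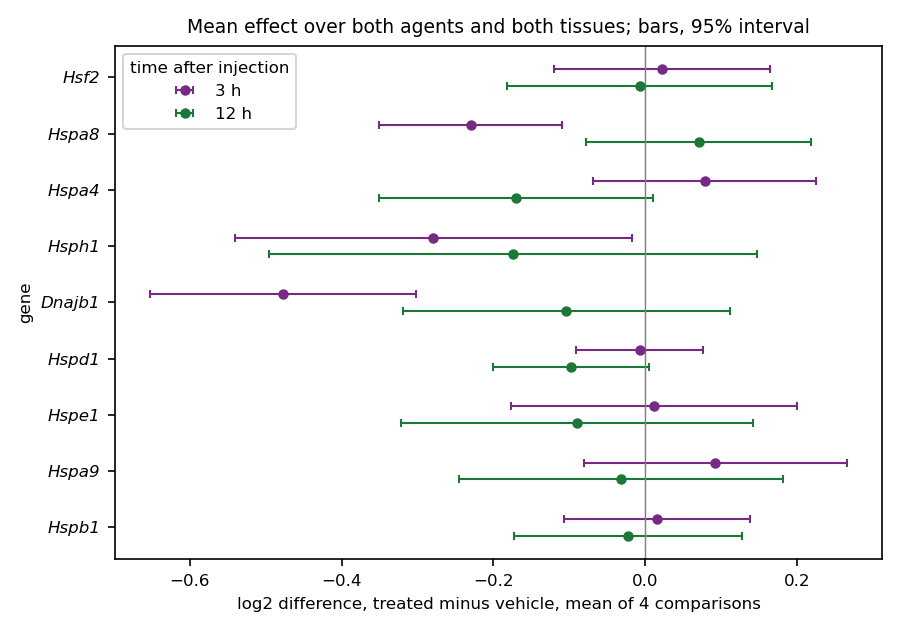
Mean effect over both agents and both tissues for each of the 9 genes at 3 h and at 12 h (log2, treated minus vehicle), with 95% intervals as bars. Dnajb1 at 3 h (-0.48) has the lowest value and is the one that passed the test; Hsph1 (-0.28) and Hspa8 (-0.23) follow.

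Over the 24 treated arrays, the 36 pairs of heat shock genes had correlations of log2 ratio between -0.62 and 0.80, with a median of 0.11. The highest were Hspe1 with Hspa9 (0.80, and 0.79 after group means were removed), Hspd1 with Hspa9 (0.69 and 0.48) and Hspa8 with Dnajb1 (0.60 and 0.40). Hspd1 with Hspe1, the head-to-head pair, had 0.49, and Hspd1 with Hspb1 had -0.62. Genes on one array share its hybridisation, and treated arrays share their vehicle denominators, so these values describe the arrays only. The 5 genes whose ratios were most like those of Dnajb1 over the same arrays were Xbp1 (0.74), Ccdc117 (0.74), Rsrp1 (0.67), Dnajb2 (0.65) and Ggcx (0.64).

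Other chaperones and cochaperones were taken from lists of 111 genes, of which 81 were measured. Of their 648 effects 3 passed the test (0.463%, against 0.295% over all genes), all in mesoderm 12 h after cadmium and all lower. That comparison held 188 of the 195 calls over all genes. There 2.28% of all genes passed, 1.22% of them downward as a share of all genes. Dnajb2, a J-domain protein that hands clients to the proteasome, fell by 0.63 there (adjusted p = 0.0265), with treated arrays at -0.26, -0.75 and -0.89 and PBS arrays at -0.01, 0.01 and 0. Fkbp5, an HSP90 cochaperone of steroid receptors, fell by 0.40 (adjusted p = 0.0365), with -0.23, -0.47 and -0.51 in treated arrays and 0.04, -0.04 and 0 in PBS arrays. Ttc4, another HSP90 cochaperone, fell by 0.30 (adjusted p = 0.0400), with treated arrays at -0.21, -0.51 and -0.18. Each of these calls was lost when array weights were dropped (adjusted p = 0.632 for Dnajb2, 0.675 for Fkbp5 and 0.587 for Ttc4), when arrays 1 and 2 alone were used, and without cadmium array 2 (0.159, 0.172 and 0.311) or array 3 of either group (0.267, 0.262 and 0.0733) of that comparison. Without some other arrays Fkbp5 and Ttc4 also missed the threshold, at adjusted p up to 0.102.

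At 3 h, Dnajb2 lay beside Dnajb1. Its treated arrays read -0.71, -0.55 and -0.82 in acetazolamide mesoderm and -0.62, -0.73 and -0.43 in acetazolamide ectoderm, all below oil. They read -0.47, -0.60 and -0.33 in cadmium mesoderm, also below PBS. The effects were -0.68, -0.59 and -0.46, with -0.22 in cadmium ectoderm, and in the mean effect at 3 h Dnajb2 fell by 0.49 (SE 0.097, adjusted p = 0.0115). This call was lost without array weights (adjusted p = 0.0893), with arrays 1 and 2 only (0.0767) and with the tissues averaged (0.0702), and it held when any single array was left out. Dnajb2 was 1 of 22 measured J-domain genes past the threshold in that mean effect and 1 of the 81 other chaperones. Over all genes 0.570% passed and 0.158% did so downward. Among the other J-domain genes, effects at an unadjusted p under 0.05 lay on both sides of 0.

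Of 19 genes listed here as heat-inducible, 15 were measured, and none passed in the mean effect at 3 h (limma). The induction of each listed gene by heat was not checked. At an unadjusted p under 0.05, 1 was higher and 3 were lower, where 6.31% of all genes were higher and 5.70% lower. Those 3 all encode HSP70 proteins and include the near-identical copies Hspa1b and Hspa1a, so they are not separate readings. The effects of the 15 measured genes were above 0 for 5 and below 0 for 10, with a median of -0.05 against -0.02 over all genes. The inducible HSP70 genes Hspa1b and Hspa1a had -0.70 ± 0.22 (adjusted p = 0.136) and -0.38 (adjusted p = 0.188). These genes are near-identical copies, so their probe sets may read each other's RNA. In Hspa1b the mesoderm values rested on array 3 of each comparison, whose treated value is taken to be relative to vehicle array 3 alone. The treated arrays read -0.74, -0.47 and -2.43 for cadmium and -0.40, -0.27 and -2.70 for acetazolamide. Bag3, a heat-inducible partner of HSP70 in selective autophagy, lay above 0 instead, with 0.23 in the mean effect at 3 h (adjusted p = 0.210).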

How the data were processed

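Values are the ratio per probe set that the authors deposited for each of the 48 arrays; the scaling and summary steps behind them are not given in the sources used here. In each comparison, vehicle arrays 1 and 2 sum to 2 (largest deviation 3e-07) and vehicle array 3 is 1 (6e-08). That treated arrays 1 and 2 share the first denominator and array 3 the second is inferred from this. The labels' protocols record Trizol and RNeasy extraction, a choice of RNA by Bioanalyzer and one-cycle labelling. Depth does not apply to arrays, and their number limits the precision.

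The deposited ratios were converted to log2. After 22 control probe sets were set aside, 10833 probe sets named 1 gene in GEO's platform annotation (396 named several and 1237 none). They were averaged per gene, giving 8251 genes, 2073 of them with more than 1 probe set. Limma 3.58.1 in R 4.3.3 was fitted to all 48 arrays with 16 denominator means, 8 agent effects, 24 residual degrees of freedom, 1 weight per comparison from its median residual variance, and eBayes. Benjamini-Hochberg adjustment ran over all genes of each comparison (threshold 0.05; intervals at 95%). From the same model came 12 differences between agents, tissues and times, 2 mean effects of an agent, and 3 shared effects (3 h, 12 h and their difference), the last added after values of single genes had been seen. The design had assumed expression levels; with ratios, no filter on dim probe sets and no level was available.

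The heat shock genes and all lists were chosen with earlier results of these data known. All 9 measured genes are named; of the other lists, genes past the threshold and the 2 per list with the largest absolute difference could be named, and the 5 genes most like Dnajb1 by Pearson correlation over the 24 treated arrays. The fit was tested on simulated data. Alternatives left out the weights, the denominator block or single arrays, added a replicate block, used 6 arrays alone, centred arrays, took probe sets singly, used a robust prior, arrays 1 and 2 only, or averaged the tissues. Promoter windows are RefSeq's (GRCm38.p6).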

Additional observations from a re-analysis of the deposited data

How the results depend on the processing

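The count of heat shock gene effects past the threshold (1 of 72) was 0 without weights, with the replicate block, with the 6 arrays of a comparison alone, with centred arrays and with probe sets taken singly. It was 0 to 1 over the 48 fits that left out 1 array. The count was 1 in 15 of these fits, and Hspd1 was the gene called in 11. In the rest Dnajb1 or Hspa8 passed at 3 h instead. With arrays 1 and 2 only, Hspd1 was lost (adjusted p = 0.432) and Hspa8 in 3 h acetazolamide ectoderm passed (-0.53, adjusted p = 0.0394). The effect called in the main fit, Hspd1 in 12 h cadmium mesoderm, had adjusted p = 0.0734 with the replicate block, 0.0690 with centred arrays and 0.322 with 6 arrays alone. The labels do not say that array numbers pair samples, and same-numbered arrays deviated together in some comparisons only (3 of 8 correlations above 0.1, range -0.20 to 0.65, with 0.65 in 12 h cadmium mesoderm and 0.55 in 3 h acetazolamide mesoderm); with the replicate block Dnajb1 kept its mean effect at 3 h (adjusted p = 0.00603). That effect stayed called without weights (0.0242), with centred arrays (0.00993) and with tissues averaged (0.0428). The count of shared effects called (1 of 27) was 0 with arrays 1 and 2 only and 1 to 2 over the fits without 1 array. The count of differences called (0 of 108) was 2 without weights (Hspd1 -0.43, adjusted p = 0.0474, and Hspa9 -0.94, adjusted p = 0.0498, cadmium minus acetazolamide in 12 h ectoderm) and 0 to 2 without 1 array. Of the means over each agent, 0 were called, and 0 to 1 without 1 array. With probe sets singly, each gene took its probe set of smallest p, and on that choice Hspa4 in 3 h acetazolamide ectoderm was -0.32 (adjusted p = 0.744), against 0.09 for the mean of its 5 probe sets, of which the others gave -0.13, 0.20, 0.35 and 0.37. Over 6888 recomputed effects, 191 changed sign, all but that one at an unadjusted p above 0.05. For an effect of 1 comparison, leaving out an array of another comparison cannot change the estimate. Dropping the weights or changing the block or the prior cannot do so either. Many of the 6888 signs were thus fixed in advance, and the 191 are no measure of stability. The all-gene count in 12 h cadmium mesoderm was 188, and 22 without weights; in the 3 h mean effect it was 47, and 16 without weights. The causes were not tested. A pseudocount and a filter on low values were not run, because the values are ratios; 6 arrays alone give agent comparisons only.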

Other observations

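Some chaperones outside the heat shock genes above had large differences that did not pass the test. In ectoderm 12 h after acetazolamide, where 8 of the 9 heat shock genes were above 0, 8 of 9 subunit genes of the cytosolic chaperonin CCT were above 0 too. Over all genes 49.6% were above 0 there, and several of these heat shock gene effects were near 0. Cct4, a CCT subunit, had 0.57 there, and Sec63, which works with the HSP70 of the endoplasmic reticulum in protein import, had 0.75. In ectoderm 12 h after cadmium, Hsp90b1, the HSP90 of the endoplasmic reticulum, had -0.70, and Dnajc7, a J-domain cochaperone of HSP70 and HSP90, had -0.76. Bag3 lay above oil in both tissues 3 h after acetazolamide, with 0.47 in ectoderm and 0.46 in mesoderm, and its mean over the acetazolamide comparisons was 0.33 (adjusted p = 0.0898).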
